A study of Mus musculus with 10 samples.

Results

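The genes described here are 9 CC chemokines (Ccl2, Ccl3, Ccl4, Ccl6, Ccl7, Ccl8, Ccl9, Ccl12 and Ccl24) and the CXC chemokine Pf4, also called Cxcl4. They were taken by name, with earlier results of these data known. All 10 were found among the 49315 genes counted in each library, through Ensembl identifiers mapped to mouse symbols. RNA-seq read counts came from microglia, the resident macrophages of the brain, sorted from the brains of wild-type C57BL/6 mice by the presence or absence of CD11c, an integrin chain encoded by Itgax, on the cell surface. The 4 groups were CD11c+ and CD11c− cells of postnatal day 5 (P5), with 3 libraries each, and CD11c+ and CD11c− cells of 9-month-old mice, with 2 libraries each. All mice were wild type and untreated as far as the labels say. The labels do not say how many animals a library holds or whether replicates are separate animals, so p-values cover only the variation among these samples, part or all of which may be technical. The SMART-Seq v4 kit, which amplifies cDNA from small amounts of RNA, is stated for the 9-month libraries alone, so an effect of age within a subset and an effect of the kit cannot be told apart, and no such difference was tested.

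Chemokines are small secreted proteins that bind G protein-coupled receptors and attract leukocytes. Ccl2, Ccl7 and Ccl12 are ligands of Ccr2, the receptor that draws monocytes out of the blood. Ccl3 and Ccl4 are made by activated macrophages, and Ccl3 acts through Ccr1, as do the rodent chemokines Ccl6 and Ccl9. Ccl24 attracts eosinophils through Ccr3, and mouse Ccl8 acts on Ccr8. Pf4 is stored in the granules of platelets and is also used as a marker of border-associated macrophages, which live in the meninges, in the choroid plexus and around vessels. Microglia are known to transcribe several chemokine genes when they are activated, including during the handling of tissue.

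Total counts were 11892082 to 25483573 per library, apart from P5 CD11c+ replicate 2 with 2619610. That library stood apart: its correlation across genes with the other P5 libraries was 0.714 to 0.779, and 23033 genes reached 1 CPM (counts scaled to the library total), against 12762 to 14735 genes in the other 9 libraries. P5 calls, and P5 levels that it moved strongly, are also given without it. Itgax had 250.2, 49.2 and 144.8 CPM in P5 CD11c+ replicates 1, 2 and 3, against 33.1, 61.9 and 29.3 CPM in P5 CD11c−, and 28.0 and 20.7 CPM in 9-month CD11c+, against 5.8 and 3.21 CPM in 9-month CD11c−. P5 CD11c+ replicate 2 was thus below 1 CD11c− library, while the 9-month groups did not overlap. All 15 homeostatic microglia markers were detected in all 10 libraries. At 9 months the 14 neutrophil and granulocyte precursor markers summed to 1414 to 2268 CPM in CD11c+ cells, against 137950 to 187960 CPM in CD11c− cells, so a sizeable part of the RNA in the 9-month CD11c− libraries was of genes used as neutrophil markers. In RNA from pooled cells, fewer cells of a type and less RNA per cell cannot be told apart.

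Of the 10 genes, 8 lie on chromosome 11 of GRCm38 in a pair of clusters, and Pf4 and Ccl24 lie apart on chromosome 5. In the first cluster Ccl2 (chr11:82035571-82037453, plus strand) is followed after 8.26 kb by Ccl7 (chr11:82045712-82047525, plus strand), after a further 54.3 kb by Ccl12 (chr11:82101845-82103400, plus strand) and after 11.8 kb by Ccl8 (chr11:82115185-82116799, plus strand). The second cluster starts 1456 kb farther on, with Ccl9 (chr11:83572919-83578636, minus strand), then Ccl6 (chr11:83587882-83593087, minus strand) after 9.25 kb, Ccl3 (chr11:83647844-83649355, minus strand) after 54.8 kb and Ccl4 (chr11:83662584-83664683, plus strand) after 13.2 kb. Pf4 is at chr5:90772435-90773383 on the plus strand and Ccl24 at chr5:135569937-135573049 on the minus strand. All 10 are protein-coding, and their deposited starts and ends were those of the GENCODE M21 annotation. Of the sequence runs of 50 bases in their transcripts, 0 were shared with another gene for 9 of the 10, and 1.97% for Ccl9.

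Promoter windows from RefSeq (GRCm38.p6) were at hand for 6 of the 10 genes (Ccl3, Ccl6, Ccl8, Ccl9, Ccl12 and Pf4). Those of 5 are printed as the 250 bases before the annotated start, 5′ to 3′ on the gene's strand: Pf4 because its level differed most between the P5 subsets, and the neighbours Ccl12 with Ccl8 and Ccl9 with Ccl6 because the genes of each pair had unequal fold changes at 9 months. They lie at chr5:90772185-90772434 (Pf4, plus strand), chr11:82101595-82101844 (Ccl12, plus strand), chr11:82114935-82115184 (Ccl8, plus strand), chr11:83578637-83578886 (Ccl9, minus strand) and chr11:83593088-83593337 (Ccl6, minus strand). Capitals mark matches, on either strand, to 8 short motifs.
Pf4: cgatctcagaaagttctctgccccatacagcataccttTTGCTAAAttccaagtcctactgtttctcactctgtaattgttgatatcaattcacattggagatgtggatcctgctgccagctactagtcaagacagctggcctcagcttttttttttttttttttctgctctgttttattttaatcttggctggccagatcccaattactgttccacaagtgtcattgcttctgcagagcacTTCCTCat
Ccl12: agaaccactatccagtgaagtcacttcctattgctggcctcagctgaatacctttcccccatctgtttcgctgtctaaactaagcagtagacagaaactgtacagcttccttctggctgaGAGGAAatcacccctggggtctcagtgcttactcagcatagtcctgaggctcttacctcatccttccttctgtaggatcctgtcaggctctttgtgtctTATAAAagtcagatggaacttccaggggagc
Ccl8: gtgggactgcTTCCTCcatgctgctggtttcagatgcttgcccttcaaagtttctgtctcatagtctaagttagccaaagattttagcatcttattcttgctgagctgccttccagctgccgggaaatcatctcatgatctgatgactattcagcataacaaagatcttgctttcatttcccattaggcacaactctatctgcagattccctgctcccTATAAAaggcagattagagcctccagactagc
Ccl9: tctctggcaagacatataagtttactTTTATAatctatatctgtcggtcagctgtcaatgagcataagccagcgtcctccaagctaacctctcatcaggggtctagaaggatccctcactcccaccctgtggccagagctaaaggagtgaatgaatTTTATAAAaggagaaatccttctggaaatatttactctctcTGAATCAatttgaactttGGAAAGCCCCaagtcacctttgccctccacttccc
Ccl6: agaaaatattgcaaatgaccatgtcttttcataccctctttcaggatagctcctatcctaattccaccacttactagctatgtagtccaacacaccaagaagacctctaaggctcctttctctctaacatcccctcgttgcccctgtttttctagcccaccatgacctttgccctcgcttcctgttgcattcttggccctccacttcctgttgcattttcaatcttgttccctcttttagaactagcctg

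The motifs searched were the TATA box (TATAAA, in 12.4% of all 32851 windows of this length), AP-1 (TGANTCA, 6.75%), the NF-kappaB consensus (3.90%), the core bound by ETS factors such as PU.1 (GAGGAA, 23.3%), a site of the GATA factors (AGATAA, 9.99%), C/EBP (TTGCNNAA, 9.56%), a site of the MAF factors (TGCTGAC, 3.81%) and STAT (TTCNNNGAA, 7.02%). Ccl12 and Ccl8 each hold TATAAA close to the start, at positions -31 to -26 and -32 to -27, and each holds GAGGAA, at -130 to -125 and -240 to -235. Ccl9 holds TATAAA at -92 to -87 and, on the other strand, at -94 to -89, which overlap, and again at -224 to -219, with TGANTCA at -53 to -47 and the NF-kappaB consensus on the minus strand at -35 to -26. Pf4 holds GAGGAA at -8 to -3 on the minus strand and TTGCNNAA at -212 to -205. Ccl6 holds none of the 8. A match describes the letters and is not a binding site, and no match says only that these letters are not in this window.

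The makeup of the chemokine RNA differed between the ages and between the subsets, which had unlike leading genes at P5 and the same leading gene at 9 months. Compared per kilobase of exon, Pf4 made up 51.4% of the summed level of the 10 genes in P5 CD11c+ cells, ahead of Ccl3 with 13.2%, Ccl2 with 7.31% and Ccl7 with 6.23%. By library the share of Pf4 was 48.4%, 61.0% and 42.1%, and without replicate 2 it was 44.8%, still ahead of Ccl3 with 17.0% and Ccl2 with 7.69%, while Ccl12 with 6.61% came before Ccl7 with 6.46%. In P5 CD11c− cells Ccl3 made up 48.6%, Ccl4 20.3% and Ccl6 12.7%, and Pf4 1.30%. At 9 months Ccl4 led with 52.5% in CD11c+ cells and 51.8% in CD11c− cells, followed by Ccl3 with 26.7% in CD11c+ and 23.3% in CD11c− cells. The third place at 9 months was held by Ccl12 in CD11c+ cells (11.8%) and by Ccl6 in CD11c− cells (12.7%). Ccl6 made up 2.02% in 9-month CD11c+ cells, and Ccl12 9.00% in 9-month CD11c− cells. Summed without regard to length, the 10 genes had 1744 to 2419 CPM in P5 CD11c+ libraries (1744 and 2180 CPM without replicate 2), against 805 to 1266 CPM in P5 CD11c− libraries, and 5324 to 6294 CPM in 9-month CD11c+ libraries, against 5336 to 6640 CPM in 9-month CD11c− libraries. The P5 sums did not overlap, and the 9-month sums did.

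**Figure D1:**
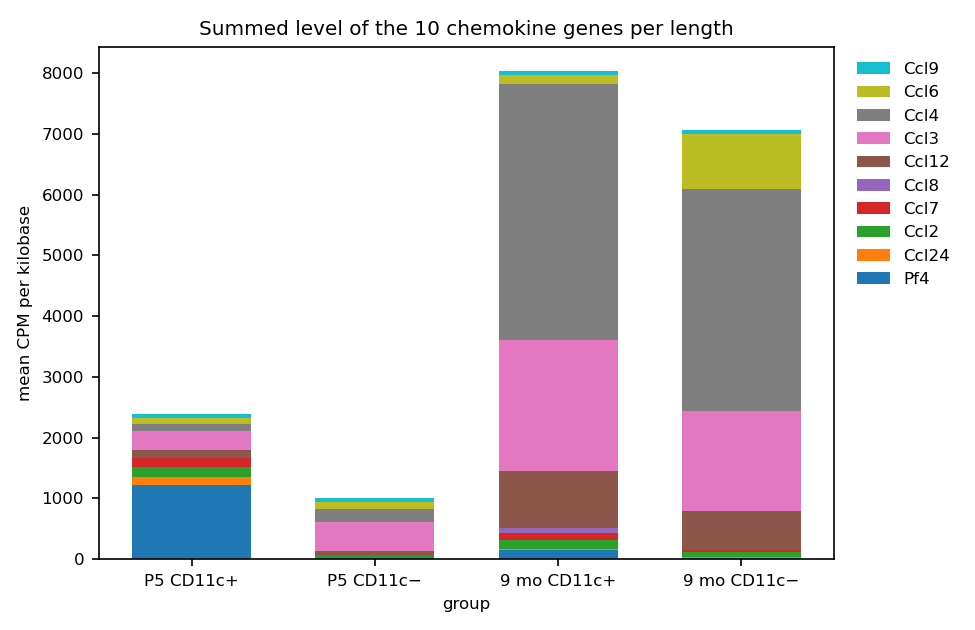
Mean level of each of the 10 genes, in CPM per kilobase of exon (y axis), stacked for each group (x axis), with 3 libraries per P5 group and 2 per 9-month group; stacked means carry no error bars. Pf4 fills 51.4% of the P5 CD11c+ bar (44.8% without replicate 2) and 1.30% of the P5 CD11c− bar, while Ccl4 and Ccl3 fill most of both 9-month bars.

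The first comparison asks how CD11c+ cells differ from CD11c− cells at P5. Pf4 had 636, 1284 and 734 CPM in CD11c+ replicates 1, 2 and 3, against 5.73, 14.9 and 7.48 CPM in CD11c− replicates. The lowest CD11c+ library stood far above the highest CD11c− library. Pf4 rose in CD11c+ cells by a log2 fold change of 6.34 ± 0.63 (SE; edgeR quasi-likelihood test, Benjamini-Hochberg adjusted p = 0.0231). Ccl24, the eosinophil attractant, had 78.8, 251.2 and 125.1 CPM in CD11c+ libraries, against 4.38, 5.38 and 3.28 CPM in CD11c− libraries, without overlap, and rose by 4.94 ± 0.54 (edgeR adjusted p = 0.0302).

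The Ccr2 ligands separated at P5. Ccl7 had 97.2, 137.8 and 122.3 CPM in CD11c+ libraries, against 6.47, 5.38 and 4.04 CPM in CD11c− libraries. Its groups lay far apart with little spread within either, and it rose by 4.32 ± 0.27 (edgeR adjusted p = 0.0179). Ccl2, the main monocyte attractant, had 197, 224 and 174 CPM in CD11c+ libraries, against 43.3, 15.2 and 34.5 CPM in CD11c− libraries. Although these libraries did not overlap either, its log2 fold change of 2.51 ± 0.40 did not pass (edgeR adjusted p = 0.0837). With the same libraries it passed by DESeq2 (DESeq2 adjusted p = 1.79e-07) and by limma-voom (limma-voom adjusted p = 0.0419). Ccl12 had 60.6, 52.7 and 89.8 CPM in CD11c+ libraries, against 47.9, 30.8 and 44.1 CPM in CD11c− libraries, a log2 fold change of 0.54 ± 0.29 that did not pass (edgeR adjusted p = 0.80).

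Ccl8, the fourth gene of that cluster, was barely detected at P5, with 3, 2 and 34 reads in CD11c+ libraries, against 1, 5 and 1 reads in CD11c− libraries. It did not pass the filter on low counts. Its summed counts of 39 in CD11c+ against 7 in CD11c− cells, scaled to the library totals, gave a ratio of 6.15 (exact 95% interval 2.72 to 16.3, covering counting error only), and 34 of the 39 reads came from replicate 3.

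The genes of the second cluster overlapped between the P5 subsets. Ccl3 had 179, 174 and 372 CPM in CD11c+ libraries, against 269, 529 and 322 CPM in CD11c− libraries (log2 fold change -0.84 ± 0.46; edgeR adjusted p = 0.80). Ccl4 had 20.2, 114.9 and 92.3 CPM in CD11c+ libraries, against 54.6, 222.9 and 125.5 CPM in CD11c− libraries, with the largest SE of the 9 members tested (-1.07 ± 0.77; edgeR adjusted p = 0.801). Ccl6 had 221, 76.7 and 216 CPM in CD11c+ libraries, against 189, 260.1 and 234 CPM in CD11c− libraries (-0.63 ± 0.45; edgeR adjusted p = 0.801). Ccl9 had 255, 103 and 253 CPM in CD11c+ libraries, against 185, 182 and 158 CPM in CD11c− libraries (0.02 ± 0.38; edgeR adjusted p = 0.993). In Ccl6 and Ccl9 the low CD11c+ value was that of replicate 2, the shallow library, and without it both Ccl9 values in CD11c+ cells lay above all 3 in CD11c− cells.

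Of the 9 members tested at P5, 3 rose (Pf4, Ccl24 and Ccl7) and 0 fell, where 0.299% of the 15410 genes tested were called (46, all higher in CD11c+ cells; before adjustment, p was under 0.05 for 668 higher and 409 lower genes). The median log2 fold change was 0.54 over the 9 members and 0.061 over all genes tested. In plain CPM, every CD11c+ library exceeded every CD11c− library in 5 of the 10 (Pf4, Ccl24, Ccl7, Ccl2 and Ccl12), as in 11.7% of all genes tested. Every CD11c+ library was lower in 0 of the 10 (3.64% of all genes). For Ccl12 the gap is lost with the TMM factors of the fit, 1.102 for CD11c+ replicate 2 and 0.824 for CD11c− replicate 3. Without CD11c+ replicate 2, 4 members rose, where 5.06% of genes rose and 9.48% were called in either direction: Pf4 by 5.99 (edgeR adjusted p = 0.000765), Ccl24 by 4.38 (0.000478), Ccl7 by 4.22 (0.000219) and Ccl2 by 2.43 (0.0101). Without any one of the other 5 P5 libraries, 0 genes of the whole table passed, and the adjusted p of Pf4, Ccl24 and Ccl7 was 0.0603 to 0.361.

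**Figure D2:**
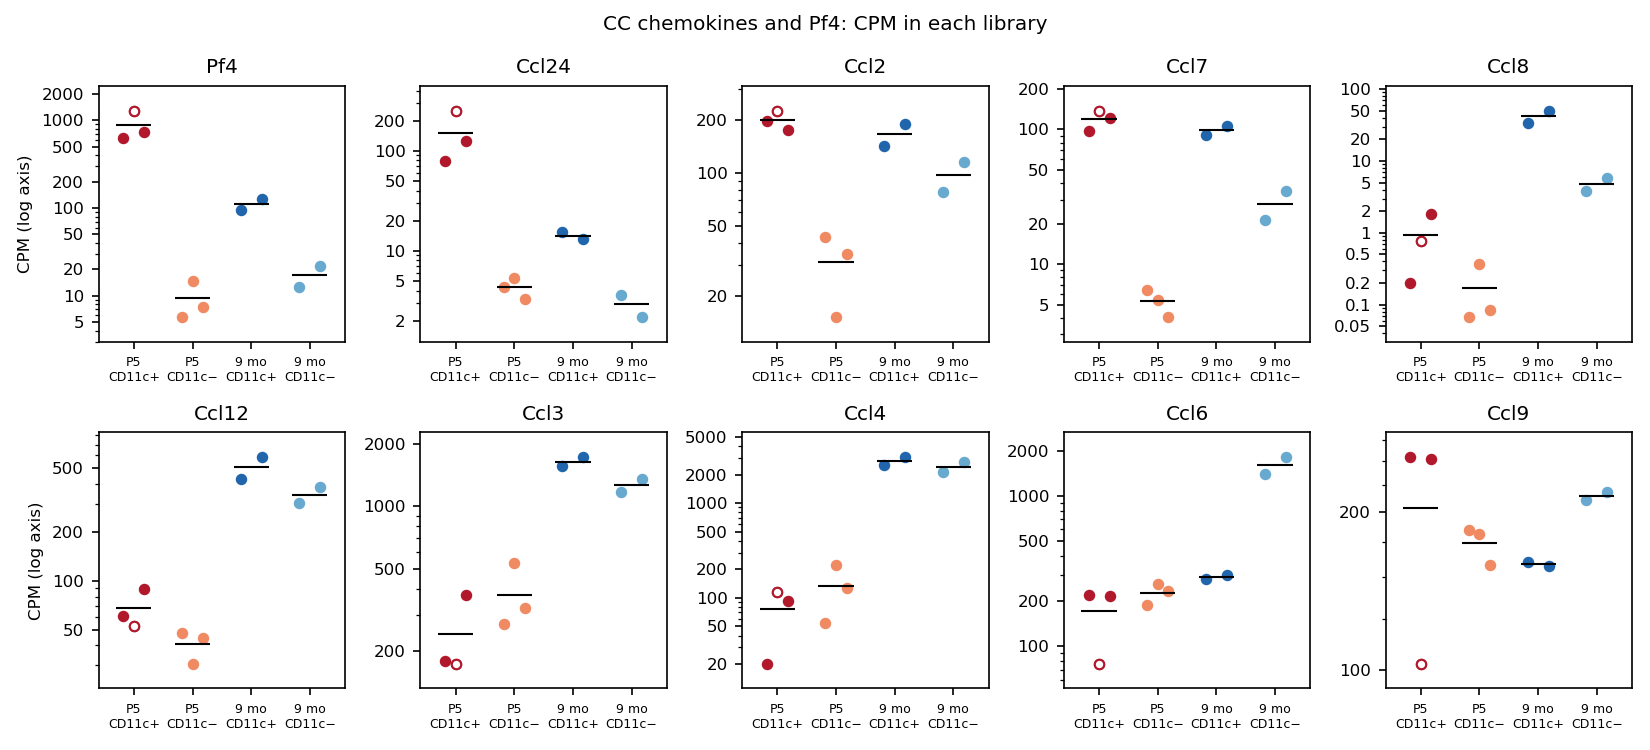
CPM of each gene (y axis, log scale) in each library, by group (x axis); each point is a library, the open circle is P5 CD11c+ replicate 2 and the black line is the group mean. Pf4, Ccl24 and Ccl7 separate the P5 subsets by the widest gaps, Ccl8 is near the detection limit at P5, and Ccl6 is highest in 9-month CD11c− cells with 1402 and 1811 CPM.

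The same comparison at 9 months, with 2 libraries per group, gave higher levels in CD11c+ cells for 4 members and lower levels for 2. Ccl8 had 33.9 and 49.8 CPM in CD11c+ replicates 1 and 2, against 3.77 and 5.79 CPM in CD11c− replicates, and rose by a log2 fold change of 2.74 ± 0.34 (edgeR adjusted p = 0.00144). Pf4 had 95.4 and 125.3 CPM in CD11c+ libraries, against 12.6 and 22.1 CPM in CD11c− libraries, and rose by 2.27 ± 0.34 (edgeR adjusted p = 0.003). Ccl24 was low, with 15.2 and 13.1 CPM in CD11c+ libraries, against 3.65 and 2.17 CPM in CD11c− libraries, and rose by 1.92 ± 0.34 (edgeR adjusted p = 0.00587). Ccl7 had 91.3 and 105.9 CPM in CD11c+ libraries, against 21.2 and 35.1 CPM in CD11c− libraries, and rose by 1.41 ± 0.30 (edgeR adjusted p = 0.0121). None of these 4 overlapped between the groups.

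The rodent Ccr1 ligands Ccl6 and Ccl9 went the other way. Ccl6 had 281 and 300.0 CPM in CD11c+ libraries, against 1402 and 1811 CPM in CD11c− libraries, and fell by 2.86 ± 0.21 on the log2 scale (edgeR adjusted p = 0.000154). Ccl9, its neighbour, had 161 and 158 CPM in CD11c+ libraries, against 211 and 218 CPM in CD11c− libraries, and fell by 0.81 ± 0.15 (edgeR adjusted p = 0.00752). Neither gene overlapped between the groups, and the interval between them was much wider for Ccl6. The neutrophil markers fell with them, 14 of 14 with a median of -7.11, and so did the 10 classical monocyte markers, 10 of 10 with a median of -4.77 and 591 to 749 CPM in CD11c+ libraries, against 13627 to 15895 CPM in CD11c− libraries. The eosinophil, basophil and mast cell markers summed to 38.6 to 44.7 CPM in CD11c+ libraries, against 1484 to 1516 CPM in CD11c− libraries. Of these 9 markers, 8 fell and Siglecf rose by 1.03 (edgeR adjusted p = 0.00888). With libraries scaled to the 15 homeostatic microglia genes, 8 of the 9 fell and 0 rose, beside 54.2% and 0.75% of all genes. The part of all these cell types in the lower Ccl6 and Ccl9 was not tested.

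Ccl4, Ccl3, Ccl2 and Ccl12 did not pass at 9 months. Ccl4 had 2517 and 3047 CPM in CD11c+ libraries, against 2134 and 2694 CPM in CD11c− libraries, which overlap (log2 fold change -0.19 ± 0.20; edgeR adjusted p = 0.519). Ccl3 had 1559 and 1722 CPM in CD11c+ libraries, against 1167 and 1356 CPM in CD11c− libraries (-0.01 ± 0.17; edgeR adjusted p = 0.977). The Ccl3 libraries did not overlap in plain CPM, but the fitted value was near 0 because the fit scales the libraries by TMM factors of 1.128 and 1.152 in CD11c+ cells, against 0.934 and 0.825 in CD11c− cells. Ccl2 had 141 and 189 CPM in CD11c+ libraries, against 78.2 and 115.0 CPM in CD11c− libraries (0.37 ± 0.27; edgeR adjusted p = 0.328). Ccl12 had 430 and 584 CPM in CD11c+ libraries, against 303 and 379.9 CPM in CD11c− libraries (0.18 ± 0.22; edgeR adjusted p = 0.577).

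At 9 months the 4 members that rose stand beside 14.8% of the 15740 genes tested, and the 2 that fell beside 18.2%; 33.0% of genes were called in either direction, so calls were common over the whole table. The median log2 fold change was 0.28 over the 10 members and 0.022 over all genes. In plain CPM, every CD11c+ library exceeded every CD11c− library in 7 members, as in 49.4% of genes, and lay below it in 2, as in 23.7% of genes. When libraries were scaled to the 15 homeostatic microglia genes instead, the median of all genes moved to -1.177, and the fold changes were 1.56 for Ccl8 (edgeR adjusted p = 0.00545) and 1.10 for Pf4 (0.0187), which still rose. Under that scaling Ccl7 at 0.23 (0.511) and Ccl24 at 0.70 (0.144) no longer passed, so that 2 members rose, beside 0.75% of genes. Ccl4 then fell by 1.37 (0.000915), Ccl3 by 1.20 (0.00104), Ccl12 by 1.0 (0.00806) and Ccl2 by 0.80 (0.0351), with the sign of Ccl2 and Ccl12 turned beside the shift of -1.177 in all genes. With Ccl6 and Ccl9, 6 members fell under that scaling, as did 54.2% of genes. The 15 homeostatic genes had summed levels of 78027 to 84298 CPM in CD11c+ libraries, against 27121 to 27187 CPM in CD11c− libraries.

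**Figure D3:**
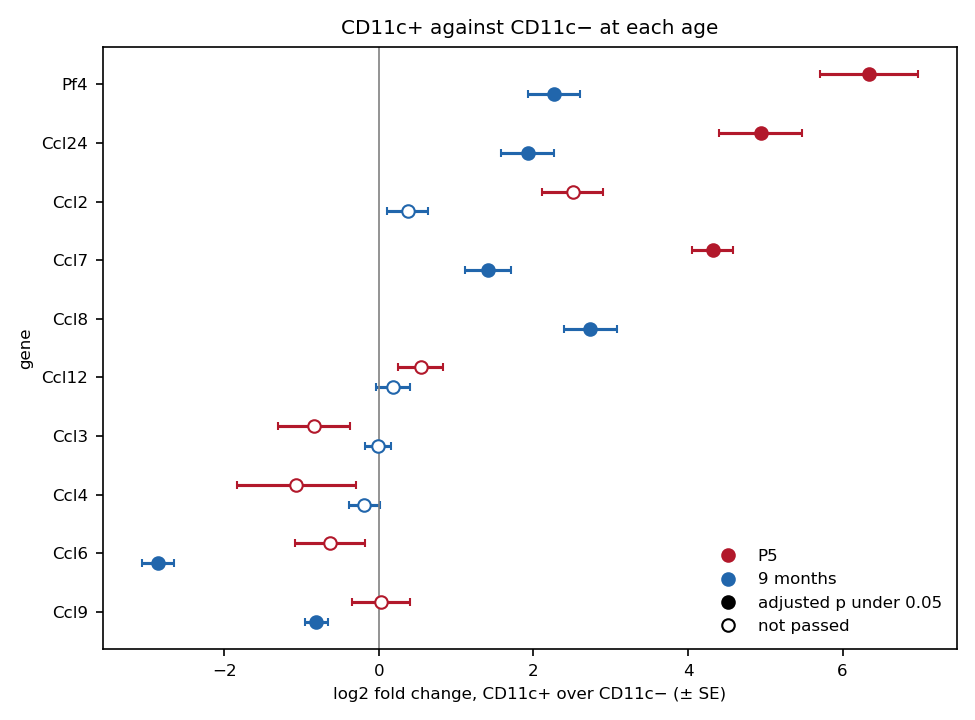
Log2 fold change of CD11c+ over CD11c− cells with its SE (x axis) for each gene (y axis) at P5 and at 9 months; filled points had an edgeR adjusted p under 0.05, and Ccl8 was not tested at P5. Pf4, Ccl24 and Ccl7 rose at both ages and Ccl6 and Ccl9 fell at 9 months, while the small 9-month values of Ccl2 and Ccl12 turn negative, and the calls of Ccl7 and Ccl24 are lost, when libraries are scaled to homeostatic microglia genes.

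The fold changes of the subsets were then compared between the ages in a fit of all 10 libraries, as the 9-month fold change minus the P5 fold change. This difference would also hold any effect of the kit that is unequal between the subsets. It was -3.85 ± 0.74 for Pf4 (edgeR adjusted p = 0.0336), -2.71 ± 0.57 for Ccl24 (0.0458) and -2.71 ± 0.49 for Ccl7 (0.0264), so all 3 genes that rose at both ages rose by less at 9 months. These 3 of 10 members stand beside 1.56% of the 19555 genes tested that were called with a negative difference, and 1.86% called in either direction, and the median difference was -1.32 over the members and -0.055 over all genes. The difference was -1.93 ± 0.61 for Ccl2 (edgeR adjusted p = 0.156) and -2.11 ± 0.76 for Ccl6 (0.211), and neither passed. The remaining 5 members had differences between -0.70 and 1.12, and none passed (edgeR adjusted p = 0.547 to 0.903).

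These calls changed with the libraries that entered the fit. Without P5 CD11c+ replicate 2, 6 members passed with a negative difference (Pf4, Ccl24, Ccl7, Ccl2, Ccl6 and Ccl9), where 10.3% of genes did. Without P5 CD11c+ replicate 1, Ccl24 alone of the 10 passed (0.722% of genes), and without any one of the other 8 libraries none of the 10 did. In 5 of these 8 fits, without P5 CD11c− replicate 3 or any one 9-month library, 0 genes of the whole table passed. In the other 3 the share called with a negative difference was 0.957% (without P5 CD11c+ replicate 3), 0.746% and 0.285% (without P5 CD11c− replicates 1 and 2). With each of the 10 libraries left out in turn the difference was -4.16 to -2.95 for Pf4, -2.94 to -2.31 for Ccl24 and -3.03 to -1.90 for Ccl7. With the mitochondrially encoded genes left out, Ccl7 alone passed (0.983% of genes). The mitochondrially encoded genes took 2.39%, 0.791% and 2.80% of counts in P5 CD11c+ libraries, against 7.19%, 20.8% and 28.1% in P5 CD11c− libraries. DESeq2 called 5 of the 10 with a negative difference (8.43% of genes), limma-voom called Pf4 and Ccl7 but not Ccl24, and scaling to the homeostatic list gave 7 (29.0%).

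Across the 4 groups the order of mean CPM differed by gene. Pf4 and Ccl24 were highest in P5 CD11c+ cells, at 884 ± 349 and 151.7 ± 89.2 CPM (SD, n = 3), above 9-month CD11c+ cells at 110.4 ± 21.1 and 14.2 ± 1.49 CPM (SD, n = 2), without overlap between the libraries. Without P5 CD11c+ replicate 2 these P5 means were 685 ± 69.5 and 102 ± 32.7 CPM (SD, n = 2). The CD11c− groups of the 2 ages came last for both genes and overlapped each other. Ccl2 and Ccl7 had overlapping levels in CD11c+ cells of the 2 ages (Ccl2 198 ± 25.1 CPM at P5 and 165 ± 33.7 CPM at 9 months; Ccl7 119 ± 20.5 CPM at P5 and 98.6 ± 10.3 CPM at 9 months). In CD11c− cells both were lower at P5, at 31.0 ± 14.4 CPM for Ccl2 and 5.30 ± 1.22 CPM for Ccl7, than at 9 months, at 96.6 ± 26.0 and 28.1 ± 9.81 CPM, without overlap. Ccl3, Ccl4, Ccl12 and Ccl8 were higher in every 9-month library than in every P5 library. Ccl6 stood apart in 9-month CD11c− cells, at 1606 ± 289 CPM (SD, n = 2), above 9-month CD11c+ cells at 291 ± 13.3 CPM, and overlapped between P5 CD11c+ cells at 171 ± 82.0 CPM (219 ± 3.17 CPM without replicate 2, SD, n = 2) and P5 CD11c− cells at 228 ± 36.0 CPM (SD, n = 3 each). For Ccl9 the 4 groups formed a run in which each overlapped its neighbour, from a mean of 214.7 CPM in 9-month CD11c− cells down to 159 CPM in 9-month CD11c+ cells. Such level differences between ages are described without a test.

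The Ccl3 and Ccl4 levels are set here beside 12 immediate-early and stress genes that tissue dissociation raises, such as Fos and Jun. That list summed to 5909 to 17277 CPM in P5 CD11c+ libraries, against 6511 to 9128 CPM in P5 CD11c− libraries, and to 39248 to 46730 CPM in 9-month CD11c+ libraries, against 23717 to 29370 CPM in 9-month CD11c− libraries. Of the 12, 5 rose and 0 fell in CD11c+ cells at 9 months, with a median of 0.46, where 14.8% of all genes rose and 18.2% fell. Scaled to homeostatic genes, 0 rose and 9 fell at 9 months, as did 54.2% of all genes. The median was then -0.75, beside -1.177 over all genes. At P5 0 of the 12 passed by edgeR, DESeq2 or limma-voom, also before adjustment, with a median of 0.36. The part of dissociation in the high 9-month levels was not tested.

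The members that rose at P5 were set beside markers of the other cells that could carry them. The 19 border-associated macrophage markers summed to 16585 to 20417 CPM in P5 CD11c+ libraries, against 1617 to 3098 CPM in P5 CD11c− libraries, and to 2134 to 2275 CPM in 9-month CD11c+ libraries, against 566 to 672 CPM in 9-month CD11c− libraries. Of the 19, 9 rose and 0 fell at P5, with a median of 4.82 (17 rose without CD11c+ replicate 2), and 18 rose and 1 fell at 9 months, with a median of 2.90. The gene that fell was F13a1, a coagulation factor subunit that classical monocytes also make. The difference between ages was called for 2 of the 19, F13a1 (-5.51) and Ms4a7 (-3.96), both negative. The 10 platelet and megakaryocyte markers had 16.6 to 23.3 CPM in P5 CD11c+ libraries, against 16.3 to 23.3 CPM in P5 CD11c− libraries, and 31.7 to 33.2 CPM in 9-month CD11c+ libraries, against 20.4 to 20.6 CPM in 9-month CD11c− libraries. Of the 6 platelet markers tested at P5, 0 passed by edgeR, DESeq2 or limma-voom (before adjustment, 0 higher and 2 lower by edgeR). Without P5 CD11c+ replicate 2, 0 rose and 1 fell. At 9 months 4 were tested, of which 1 rose and 1 fell: Gp9, a subunit of a platelet adhesion receptor, averaged 29.0 CPM in CD11c+ cells and 12.5 CPM in CD11c− cells and rose by 0.83 (edgeR adjusted p = 0.0283), and Itga2b, a platelet integrin chain, averaged 0.684 CPM in CD11c+ cells and 6.51 CPM in CD11c− cells and fell by 3.61 (edgeR adjusted p = 0.00227). Gp9 thus made up most of the 9-month sum in CD11c+ cells. Scaled to homeostatic genes, 0 of the 4 rose and 1 fell, beside 0.75% and 54.2% of all genes. Ppbp, another platelet granule chemokine on that list, had 4.22, 0 and 4.60 CPM in P5 CD11c+ libraries, against 0.20, 0 and 1.18 CPM in P5 CD11c− libraries. Its 150 reads in CD11c+ against 17 in CD11c− libraries gave a ratio of 9.74 (exact 95% interval 5.88 to 17.2, counting error only). The fitted log2 fold change of 2.43 ± 1.65 did not pass (edgeR adjusted p = 0.801). The part of platelets in the Pf4 levels was not tested.

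**Figure D4:**
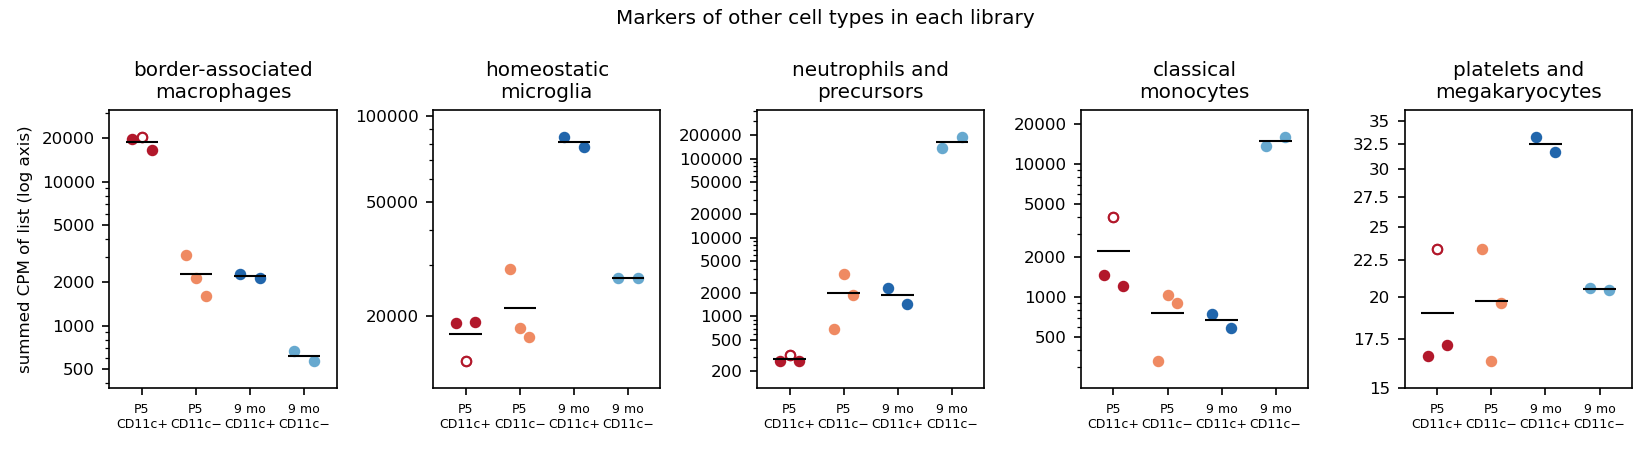
Summed CPM of 5 marker lists (y axis, log scale) in each library, by group (x axis); points are libraries, the open circle is P5 CD11c+ replicate 2 and black lines are group means. The border-associated macrophage list is high in P5 CD11c+ libraries at 16585 to 20417 CPM, the neutrophil and monocyte lists are high in 9-month CD11c− libraries, and the platelet list stays at 16.3 to 33.2 CPM.

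Levels were also expressed per 1000 summed CPM of the border-associated macrophage list. On this scale Pf4 had 32.3, 62.9 and 44.2 in P5 CD11c+ libraries, against 1.85, 6.94 and 4.63 in P5 CD11c− libraries, and 41.9 and 58.7 in 9-month CD11c+ libraries, against 18.7 and 39.1 in 9-month CD11c− libraries. The subsets still did not overlap at either age, while the CD11c+ libraries of the 2 ages did. At 9 months most of the list sum in CD11c− libraries was F13a1, with 340 to 367 of 566 to 672 CPM. In 9-month CD11c+ libraries F13a1 had 300 to 349 of 2134 to 2275 CPM. Classical monocytes also make F13a1. The ratios were not computed without it, so the 9-month comparisons of the subsets on this scale hold only with F13a1 in the list. Ccl24 had 4.0, 12.3 and 7.54 in P5 CD11c+ replicates 1, 2 and 3, against 1.41 to 2.51 in P5 CD11c− libraries, and 6.15 and 6.69 in 9-month CD11c+ libraries, against 3.83 and 5.43 in 9-month CD11c− libraries, again without overlap between the subsets at either age. Ccl7 had 4.93 to 7.37 in P5 CD11c+ libraries, against 2.09 to 2.51 in P5 CD11c− libraries, but overlapped at 9 months, with 40.1 and 49.6 in CD11c+ libraries, against 31.6 and 61.9 in CD11c− libraries. Ccl2 overlapped at P5, with 9.98 to 11 in CD11c+ libraries, against 7.08 to 21.3 in CD11c− libraries, and at 9 months was lower in CD11c+ libraries, at 62.0 and 88.4, against 116 and 203 in CD11c− libraries. Ccl2, Ccl7 and Ccl12 were higher on this scale in every 9-month library than in every P5 library. The part of border-associated macrophages in these differences was not tested beyond these ratios.

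**Figure D5:**
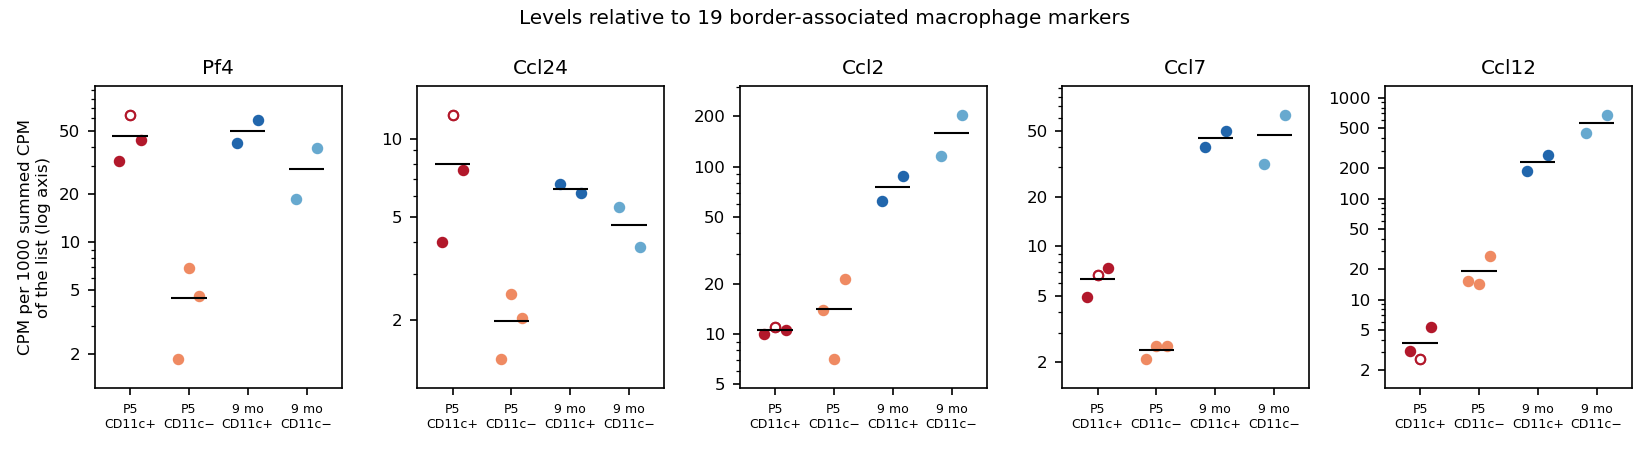
CPM of 5 members per 1000 summed CPM of 19 border-associated macrophage markers (y axis, log scale) in each library, by group (x axis); points are libraries, the open circle is P5 CD11c+ replicate 2 and black lines are group means. Pf4 and Ccl24 keep the CD11c+ libraries above the CD11c− libraries at both ages, while Ccl2 and Ccl12 do not. In 9-month CD11c− libraries most of the marker sum is F13a1, which classical monocytes also make, and the ratios were not computed without it. In P5 CD11c− libraries most of the marker sum is Maf and Stab1, and the ratios were not computed without them either.

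Receptors of these ligands were measured in the same libraries. At P5, 6 of 10 receptor genes were tested and 0 passed by edgeR (before adjustment, 3 higher and 2 lower at p under 0.05). DESeq2 called 2 of them higher and limma-voom 0, and edgeR called 2 higher without CD11c+ replicate 2. At 9 months, 2 of the 7 tested rose and 3 fell, with a median of -1.38. Over all genes 14.8% rose and 18.2% fell, with a median of 0.022. The atypical receptor gene Ccrl2 rose by 0.54 ± 0.14 (edgeR adjusted p = 0.0231). Ccr1, a receptor of Ccl3, Ccl6 and Ccl9, averaged 75.6 ± 2.47 CPM in CD11c+ cells and 371 ± 16.0 CPM in CD11c− cells (SD, n = 2 each), and fell by 2.67 ± 0.15 (edgeR adjusted p = 5.25e-05). Ccr3, the receptor of Ccl24, fell by 3.31 ± 0.35 (edgeR adjusted p = 0.000733) and Ccr2 by 1.38 ± 0.16 (edgeR adjusted p = 0.0011). Ccr8, the receptor of mouse Ccl8, had at most 0.202 CPM in any library. Ccr1 is also made by monocytes and neutrophils, Ccr2 by monocytes and Ccr3 by eosinophils. The markers of these cells fell too, apart from Siglecf on the eosinophil list, which rose. The part of these cells was not tested. Scaled to homeostatic genes, 0 of the 7 rose and 5 fell, beside 0.75% and 54.2% of all genes.

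Among 28 other chemokine ligands, 0 of 12 tested passed at P5 by edgeR, DESeq2 or limma-voom, or by edgeR without CD11c+ replicate 2 (before adjustment, 2 higher and 0 lower by edgeR). At 9 months 6 of 15 rose and 2 fell, with a median of 1.05, where 14.8% of all genes rose and 18.2% fell. Cxcl16, a membrane-bound chemokine, averaged 215.5 ± 15.4 CPM in CD11c+ cells and 60.0 ± 6.82 CPM in CD11c− cells, and rose by 1.47 ± 0.15 (edgeR adjusted p = 0.000615). Ccl17 and Ccl22, ligands of Ccr4 that dendritic cells make, had 119 and 382 reads in CD11c+ libraries, against 2 and 3 reads in CD11c− libraries, ratios of 56.3 (exact 95% interval 15.2 to 470) and 120.5 (40.9 to 587). Cx3cl1, the ligand of the microglial receptor Cx3cr1, had 93 reads in CD11c+ libraries, against 1 in CD11c− libraries (ratio 88.0, interval 15.4 to 3513). Ccl5 rose by 0.92 and Cxcl13 by 1.05 (edgeR adjusted p = 0.0372 and 0.0437). The neutrophil attractants Cxcl2 and Cxcl3 fell by 1.64 and 2.82 (edgeR adjusted p = 0.000331 and 0.0117), and Cxcl2 averaged 149.6 ± 2.53 CPM in CD11c+ cells and 362 ± 58.3 CPM in CD11c− cells. The difference between ages passed for 0 of 18 ligands tested by edgeR (before adjustment, 2 positive and 1 negative), for 0 by limma-voom and for 1 by DESeq2. Scaled to homeostatic genes, 3 of the 15 rose and 3 fell at 9 months, beside 0.75% and 54.2% of all genes.

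For each member, the genes with the most similar pattern over the 10 libraries were found as those with the smallest root mean square difference of log2(CPM + 1) after each gene's mean was removed, among 19545 genes. Libraries share depth and composition within a group, so this is a description. For Pf4 they were the border-associated macrophage markers Ms4a7 (0.73), Cd163 (0.79) and Clec10a (0.80), against a spread of 2.71 of Pf4 around its own mean. For Ccl24 they were Adam33 (0.38), Ptprk (0.51) and Fcna (0.54), and for Ccl7 Gm4951 (0.59), Cbr2 (0.60) and Kitl (0.69). Ccl2 was nearest to Kitl (0.36), Sgsh (0.50) and Fcgr2b (0.51). Ccl12 was nearest to Gm45546 (0.31), AW112010 (0.33) and Cxcl13 (0.42), and Ccl8 to Gm38140 (0.42), Trp53i11 (0.59) and Klk8 (0.60). Ccl3 was nearest to Ddit3 (0.24), Rab20 (0.27) and Tnfrsf12a (0.29), Ccl4 to Btg2 (0.79), Tnfsf13b (0.80) and Rgs1 (0.81), Ccl6 to Gm15922 (0.22), Dstn (0.23) and Smim5 (0.24), and Ccl9 to Arpc1a (0.15), Tmem131l (0.16) and Tpi1 (0.16). Among the members themselves the nearest pairs were Ccl3 with Ccl12 (0.73), Ccl2 with Ccl7 (0.78), Ccl8 with Ccl12 (0.83) and Ccl24 with Pf4 (0.91). Of these pairs, Ccl2 with Ccl7 and Ccl8 with Ccl12 are neighbours on chromosome 11. The nearest pair, Ccl3 and Ccl12, lies in different clusters of chromosome 11, and Ccl24 and Pf4 lie far apart on chromosome 5. The search was sensitive to P5 CD11c+ replicate 2: without it, 11 of the 30 genes named for the members remained among the 3 nearest. Those of Pf4 were then Cd38 (0.48), Clec10a (0.60) and Cd163 (0.66), and those of Ccl24 were Cd4 (0.19), Adam33 (0.26) and Siglec1 (0.35).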

How the data were processed

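Microglia of wild-type C57BL/6 mice sorted by CD11c gave 10 RNA-seq libraries. The authors deposited a table of unnormalized whole-number read counts for each library. Per the submitters' processing notes, Trimmomatic 0.36, STAR 2.5.2b and Subread 1.5.2 were used. Build, strand use and the treatment of reads with several matches are not given in the sources used here, so reads of overlapping genes (Gm17268 with Ccl2, E230016K23Rik with Ccl6) cannot be told apart. Of 49315 gene identifiers, 48970 were matched to a symbol, and 44858 had the start and end of GENCODE M21 (GRCm38). Values left unused numbered 0 columns.

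Levels are CPM, the deposited counts scaled to the total over all genes, and CPM per kilobase of the deposited exon length between genes. P5 and 9-month libraries were fitted separately by edgeR 4.0.16 (R 4.3.3; glmQLFit and glmQLFTest) after filterByExpr and TMM scaling, and the difference between ages as an interaction in all 10 libraries. P-values were adjusted by Benjamini-Hochberg over all genes tested, with a threshold of 0.05. The SE is the fold change divided by the square root of F. Tests were checked on simulated counts. Intervals of count ratios are exact binomial at 95% and cover counting error only. Replicates differed by more than sampling noise (chi-square per degree of freedom 28.29 to 243.9), so none was a duplicate.

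The members and all gene lists were chosen with earlier results of these data known. Named were all 10 members, other ligands and receptors past the threshold, and for each member the 3 genes nearest in pattern; 1 receptor that the rule names is not reported here. Ppbp, Itga2b, F13a1, Maf, Stab1, Ms4a7, Siglecf, Ccr8, Cd38, Cd4 and Siglec1 were named after their values were seen. Alternatives were DESeq2 1.42.0 and its size factors, limma-voom (limma 3.58.1), no filter on low counts, a replicate block, scaling to 15 homeostatic genes, mitochondrially encoded genes left out, a fit of all 10 libraries, and each library left out in turn. Leaving P5 CD11c+ replicate 2 out of the makeup, the list sums and the search for nearest genes was added after the data were seen.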

Additional observations from a re-analysis of the deposited data

Results flagged for a closer look

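The fold change between the subsets differed between the ages for 3 of the 10 members and for 2 of their receptors, by the test of the difference itself in a fit of all 10 libraries, where 1.86% of the 19555 genes tested were called. As the 9-month log2 fold change minus that at P5, it was -3.85 for Pf4, -2.71 for Ccl24 and -2.71 for Ccl7. It was -4.54 for Ccr1 (edgeR adjusted p = 0.0192), which averaged 163 ± 77.7 CPM in P5 CD11c+ cells (228, 76.7 and 184 CPM in replicates 1, 2 and 3), against 35.6 ± 7.28 CPM in P5 CD11c− cells (SD, n = 3 each), and was lower in CD11c+ cells at 9 months. It was -4.51 for Ccr3 (edgeR adjusted p = 0.0214), which averaged 4.30 ± 1.94 CPM in P5 CD11c+ cells (3.62, 6.49 and 2.78 CPM), against 1.36 ± 0.256 CPM in P5 CD11c− cells, and 1.47 ± 0.143 CPM in 9-month CD11c+ cells, against 11.2 ± 1.06 CPM in 9-month CD11c− cells (SD, n = 2 each). Both receptor calls were lost with the replicate block (adjusted p = 0.0956 for Ccr1 and 0.111 for Ccr3), without any one P5 CD11c− library (0.0511 to 0.06 for Ccr1 and 0.0515 to 0.0851 for Ccr3) and without any one 9-month library (0.15 to 0.359 for Ccr1 and 0.118 to 0.324 for Ccr3, all by edgeR). With the block, and without P5 CD11c− replicate 3 or any one 9-month library, 0 genes of the whole table passed, the 3 members included.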

How the results depend on the processing

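The number of genes called at P5 (46) was 555 with DESeq2, 75 with limma-voom, 100 when scaled to the homeostatic list, 138 in the fit of all 10 libraries, 0 with the replicate block, and 0 to 1501 with a library left out. The members called there (3) numbered 0 with the block and 0 to 4 with a library left out. They numbered 4, with Ccl2 added, with DESeq2, with limma-voom, when scaled to the homeostatic list and in the fit of all 10 libraries. At 9 months the genes called (5202) numbered 8654 when scaled to the homeostatic list, 1158 in the fit of all 10 libraries and 4006 to 6087 with a library left out, and the members called (6) numbered 6 to 7 with a library left out. In the fit of all 10 libraries Ccl8 (adjusted p = 0.0765) and Ccl9 (0.49) lost their 9-month calls. For the difference between ages the genes called (364) numbered 623 with DESeq2 size factors, 693 with no filter, 2413 with DESeq2, 5695 when scaled to the homeostatic list, 0 with the block and 0 to 3496 with a library left out, and the members called (3) numbered 5 with DESeq2, 7 when scaled to the homeostatic list, 1 with mitochondrially encoded genes left out, 0 with the block and 0 to 6 with a library left out. Same-numbered P5 libraries deviated together with correlations of 0.457, 0.042 and -0.443, and differently numbered ones with -0.518 to 0.499. At 9 months same-numbered libraries had 0.124 and the others -0.124, an equal size that 2 libraries per group force. These values cannot show whether the numbers pair the samples.

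Signs turned for small fold changes. At P5 Ccl9 was -0.16 with limma-voom, -0.07 with the replicate block and -0.20 to 0.36 with a library left out. At 9 months, scaled to the homeostatic list, Ccl2 was -0.80 and Ccl12 -1.0, and with a library left out Ccl12 was -0.05 to 0.52 and Ccl4 -0.42 to 0.16. Ccl3 was 0.11 in the fit of all 10 libraries, 0.01 with limma-voom, 0.05 with no filter, 0.00 with the block and -0.19 to 0.27 with a library left out. The difference between ages, scaled to the homeostatic list, was -0.73 for Ccl3, -0.75 for Ccl4 and -0.99 for Ccl8 (-0.26 to 2.25 with a library left out), and that of Ccl12 was 0.16 with mitochondrially encoded genes left out and -0.43 to 0.31 with a library left out. That scaling moved the median of all genes to 0.515 at P5, -1.177 at 9 months and -1.914 for the difference. Where a construction does not give the cause, the cause was not tested. Of 80 group means under other scalings, 18 moved beyond 1 SD and 62 did not. With 39 reads in P5 CD11c+ and 7 in P5 CD11c− cells, Ccl8 did not pass the P5 filter on low counts, also without P5 CD11c+ replicate 2, so counts this low limit what P5 can show of it.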

Other observations

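The remaining marker lists were measured beside the members. Over all genes tested, 0.299% rose and 0% fell at P5, and 14.8% rose and 18.2% fell at 9 months. The 10 dendritic cell markers summed to 116 to 154 CPM in P5 CD11c+ libraries, against 29.1 to 33.3 CPM in P5 CD11c− libraries, and to 271.5 to 285 CPM in 9-month CD11c+ libraries, against 40.1 to 49.7 CPM in 9-month CD11c− libraries. Of them 1 of 10 tested rose at P5 (4 without P5 CD11c+ replicate 2) and 4 of 9 at 9 months, and 0 fell. At P5 Ccl22, which dendritic cells make, had 58 reads in CD11c+ libraries, against 1 in CD11c− libraries (ratio 64.0, exact 95% interval 11 to 2572, counting error only).

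The 10 lymphocyte markers summed to 40.9 to 49.2 CPM in 9-month CD11c+ libraries, against 132.5 to 133 CPM in 9-month CD11c− libraries, and 5 of 9 tested fell there. At P5 they summed to 52.8 to 95.1 CPM in CD11c+ libraries, against 60.9 to 90.2 CPM in CD11c− libraries, and 0 of 10 passed by edgeR or limma-voom and 1 fell by DESeq2 (before adjustment, 1 lower by edgeR); 2 fell by edgeR without P5 CD11c+ replicate 2. The 10 endothelial and mural cell markers had 71.8 to 198 CPM in P5 CD11c+ libraries, against 46.7 to 54.7 CPM in P5 CD11c− libraries, with 1 of 5 tested higher. Without P5 CD11c+ replicate 2, the library at 198 CPM, the P5 CD11c+ libraries had 71.8 and 79.6 CPM, with 1 of 6 higher and 1 lower. At 9 months they had 29.0 to 35.8 CPM in CD11c+ libraries, against 54.7 to 70.0 CPM in CD11c− libraries, with 1 of 5 higher and 1 lower. The 14 neuron, astrocyte and oligodendrocyte lineage markers had 92.6 to 300.4 CPM in P5 CD11c+ libraries, against 92.8 to 189 CPM in P5 CD11c− libraries, and 0 of 10 passed by edgeR or limma-voom and 1 fell by DESeq2 (before adjustment, 1 lower by edgeR). Without P5 CD11c+ replicate 2, the library at 300.4 CPM, the P5 CD11c+ libraries had 92.6 and 107.7 CPM, and 2 of 10 fell. They had 259.6 to 285 CPM in 9-month CD11c+ libraries, against 129 to 173 CPM in 9-month CD11c− libraries, with 1 of 8 higher and 1 lower. At P5 the neutrophil list summed to 267 to 320 CPM in CD11c+ libraries, against 698 to 3401 CPM in CD11c− libraries, and the eosinophil, basophil and mast cell list to 16.3 to 33.6 CPM in CD11c+ libraries (16.3 and 18.3 CPM without replicate 2), against 42.4 to 63.5 CPM in CD11c− libraries.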
